A study of Mus musculus with 14 samples.

Results

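The genes described here move long-chain fatty acids into the heart muscle cell and burn them. They form a list of 33 genes, and 30 of them were measured among 19937 genes on the array. Each gene was read by 1 probe set, the one with the highest mean over all arrays among those listed with a single gene symbol. Acsl1 and Ucp2 had no such probe set, and the probe set of Cpt1b, the muscle form of the outer carnitine enzyme, was listed with several symbols, so these 3 genes carry no value here. Fabp3 alone had more than 1 probe set.

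RNA of left ventricles (LV) of male mice was hybridised to 14 Affymetrix mouse ST 1.0 arrays, with 1 array per mouse. WT mice were C57BL/6, and CXCR5-/- mice lacked the chemokine receptor in every cell, because a neomycin resistance gene had been put in place of its coding region in embryonic stem cells of another strain before the line was crossed back to C57BL/6. Both genotypes had either aortic banding (AB), a ligature on the ascending aorta that loads the LV with pressure, or a Sham operation with no ligature, and hearts were taken 3 weeks later with the right ventricle and atria cut away. The groups held 3 WT Sham, 4 WT AB, 3 CXCR5-/- Sham and 4 CXCR5-/- AB mice, whose age the sources used here do not give. AB mice entered the study only when flow across the ligature was fast enough, which limits the AB groups to mice with a tight constriction.

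Fatty acids enter the cardiomyocyte through the membrane proteins CD36 and FATP1, are held in the cytosol by the binding protein FABP3 and are activated to acyl-CoA. Acyl groups then cross the mitochondrial membranes on carnitine, a step that malonyl-CoA holds back. In the matrix each turn of beta-oxidation removes an acetyl unit and passes electrons to the respiratory chain. The adult heart draws most of its energy from this route, and nuclear receptors of the PPAR and estrogen-related families switch its genes on together.

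Array medians ranged from 5.19 to 5.3 on the log2 scale. Cxcr5, the targeted gene, read 3.03 to 3.30 on WT arrays and higher, at 3.85 to 4.47, on the arrays labelled CXCR5-/-, so it did not check the labels, and genotype directions below refer to the labelled groups. Nppb, a natriuretic peptide gene of the loaded ventricle, lay at 9.01 to 10.12 on Sham and at 10.93 to 11.81 on AB arrays. Defining ventricular genes were present on every array, with a mean log2 level of the 8 markers between 12.07 and 12.36. Myl7, an atrial light chain gene, stood high on 3 Sham arrays (9.09 on WT Sham replicate 1, and 9.68 and 8.82 on CXCR5-/- Sham replicates 1 and 2) against 5.65 to 7.49 elsewhere. The full list of 7 atrial markers did not set these arrays apart. Its mean log2 level was 6.434 to 7.824 on Sham and 6.783 to 8.066 on AB arrays. Nppa, a marker of that list, had group means of 10.98 and 12.76 in WT Sham and AB, and 11.45 and 12.84 in CXCR5-/- hearts.

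After AB, most steps of fatty acid use were lower in both genotypes. In WT hearts 20 of 30 genes fell and 0 rose at an adjusted p under 0.05 (limma), against 4.22% of all genes lower and 5.1% higher. In CXCR5-/- hearts 22 fell and 0 rose, against 5.86% and 8.28% of all genes. The median log2 difference between AB and Sham was -0.46 in WT and -0.53 in CXCR5-/- hearts, while the median of all genes was 0.01 and -0.01. The 20 genes that fell in WT all fell in CXCR5-/- hearts too, which also had lower Cpt2 and Acaa1a. None of the 30 passed as higher under any alternative setting or with significance analysis of microarrays. AB and Sham arrays were fully separated, every AB array below every Sham array, for 23 genes in WT hearts (7.74% of all genes) and 26 in CXCR5-/- hearts (11.7%). For 21 genes all 8 AB arrays lay below all 6 Sham arrays (3.96% of all genes).

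**Figure D1:**
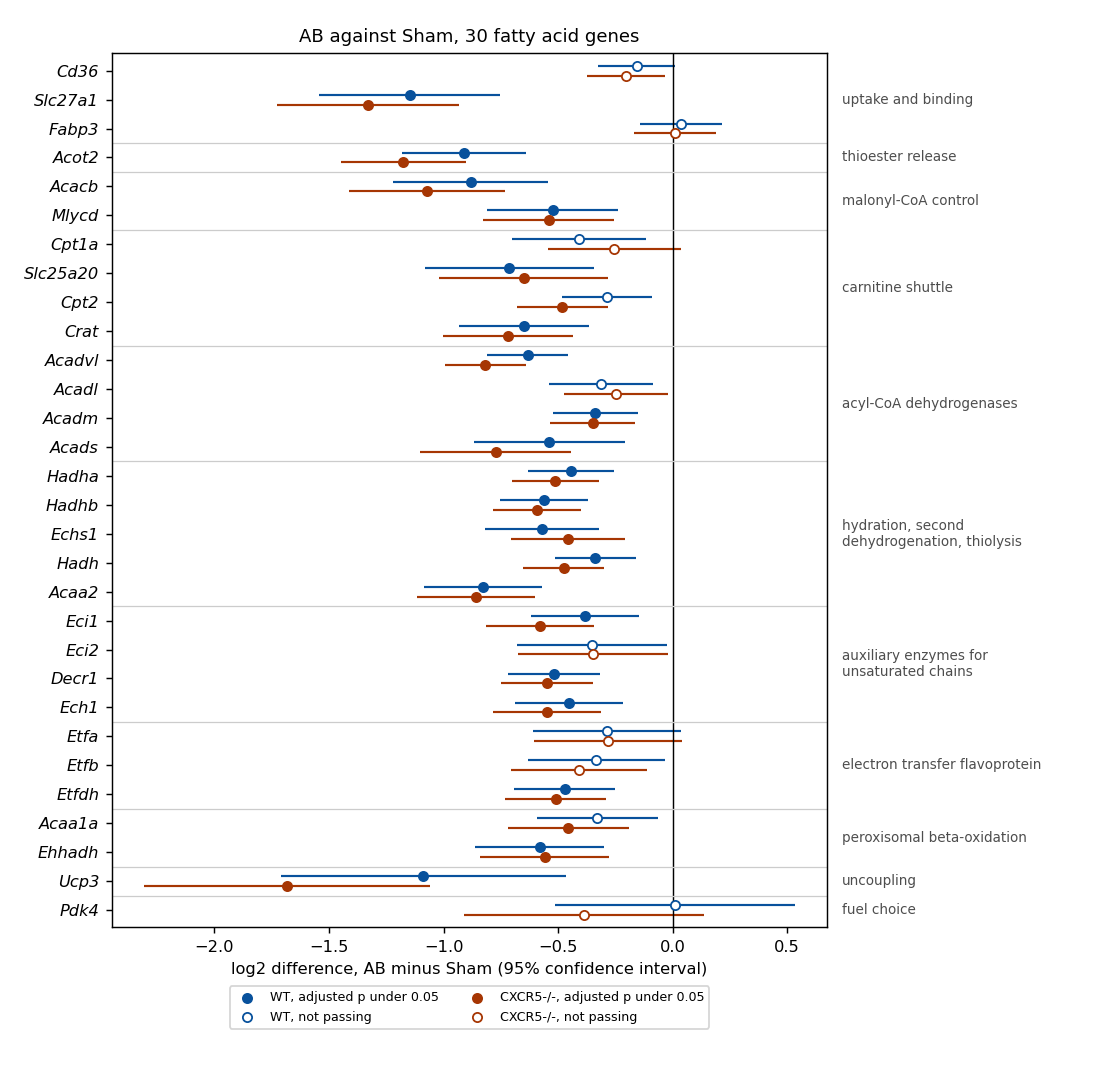
Log2 difference between AB and Sham (x axis) for each of the 30 genes, grouped by step, in WT (blue) and CXCR5-/- (brown) hearts, with 95% confidence intervals. Filled points passed an adjusted p of 0.05. All points but those of Fabp3 and, in WT, Pdk4 lie left of 0.

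Averaged over both genotypes, 27 of 30 genes were lower after AB and 0 higher, against 10.4% and 12.3% of all genes. Cd36, Cpt1a, Acadl, Eci2 and Etfb passed only in this average. Fabp3, Etfa and Pdk4 did not pass in any AB comparison. The falls were moderate for most genes. AB left 50 to 80% of the Sham signal for 22 genes in WT and 21 in CXCR5-/- hearts, and less than 50% for 2 and 4 genes. Slc27a1 and Ucp3 were below 50% in both genotypes, joined by Acot2 and Acacb in CXCR5-/- hearts.

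Leaving out the 3 Sham arrays with high Myl7 lowered the counts to 12 in WT and 7 in CXCR5-/- hearts, where a lone Sham array then remained and was assumed to vary like the other groups. The median log2 differences stayed at -0.44 and -0.47. The WT calls lost were those of Mlycd, Slc25a20, Acadm, Acads, Hadh, Eci1, Ech1 and Ucp3, and in CXCR5-/- hearts the 7 genes still called were Slc27a1, Acot2, Acacb, Acadvl, Hadha, Hadhb and Acaa2. Leaving out WT Sham replicate 1 alone gave 13 genes in WT hearts. A covariate of the mean level of Myl7, Myl4 and Sln, 3 of the 7 atrial markers, was fitted with all arrays kept. With it 19 genes passed in WT and 20 in CXCR5-/- hearts. That fit ended the calls of Eci1 in WT (adjusted p = 0.052) and of Slc25a20 and Acaa1a in CXCR5-/- hearts (0.0622 and 0.0639).

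Single arrays decided the calls of some genes. In WT hearts, Acads lost its call without AB replicate 1 or 2 or any 1 Sham array (adjusted p 0.0738 to 0.142), Ucp3 without AB replicate 1 or 3 or Sham replicate 1 or 2 (0.0662 to 0.133), and Acadm without AB replicate 1 or Sham replicate 2 or 3 (0.065 to 0.0891). Mlycd lost it without AB replicate 1 or Sham replicate 1 (0.0638 and 0.0874), and Hadh, Ech1 and Slc25a20 without Sham replicate 1 (0.0545, 0.0671 and 0.0589). In CXCR5-/- hearts, Mlycd and Echs1 lost it without Sham replicate 1 (0.0656 and 0.07), Acadm and Ehhadh without Sham replicate 2 (0.0576 and 0.0692), and Acaa1a without AB replicate 2 or Sham replicate 1 or 3 (0.0658 to 0.0707). Gains were fewer. Acadl passed in WT hearts without WT AB replicate 4 (0.0331), Cpt2 in WT hearts without CXCR5-/- AB replicate 4 (0.0498), Acaa1a in WT hearts without WT AB replicate 3 (0.041), and Etfb in CXCR5-/- hearts without WT AB replicate 4 (0.0184). Each of these genes stayed below 0 throughout.

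The promoters of Ucp3, Acadvl and Cpt1a are shown to place the half-site AGGTCA beside the size of the AB response. This half-site is the core that PPAR, retinoid X and estrogen-related receptors read. Sequences are from RefSeq (GRCm38.p6), which held 29 of the 33 genes, in windows of 250 bases before and 50 after a gene's start. The 250 upstream bases are printed in gene orientation, with AGGTCA or its reverse complement TGACCT in capitals. Of the 30 genes, Ucp3 had the largest fall in CXCR5-/- hearts, Acadvl had the smallest adjusted p in both genotypes, and Cpt1a passed in neither. They lie at chr7:100472741-100472990 (+ strand), chr11:70015429-70015678 (- strand) and chr19:3323051-3323300 (+ strand).
Ucp3: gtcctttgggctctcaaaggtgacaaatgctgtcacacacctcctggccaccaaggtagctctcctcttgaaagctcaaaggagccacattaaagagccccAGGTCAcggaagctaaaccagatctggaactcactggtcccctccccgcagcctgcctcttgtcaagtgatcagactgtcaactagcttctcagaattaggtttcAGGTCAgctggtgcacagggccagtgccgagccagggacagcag
Acadvl: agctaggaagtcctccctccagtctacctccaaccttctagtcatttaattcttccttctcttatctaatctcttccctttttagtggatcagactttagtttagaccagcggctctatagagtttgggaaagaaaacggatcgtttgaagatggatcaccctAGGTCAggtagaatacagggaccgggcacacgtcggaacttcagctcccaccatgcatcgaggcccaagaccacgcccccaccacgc
Cpt1a: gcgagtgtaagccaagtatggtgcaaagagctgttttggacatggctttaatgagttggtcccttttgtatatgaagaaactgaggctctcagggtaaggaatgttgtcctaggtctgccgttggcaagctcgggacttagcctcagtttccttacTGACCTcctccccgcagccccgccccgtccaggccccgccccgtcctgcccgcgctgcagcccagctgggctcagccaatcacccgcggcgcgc

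Ucp3 held 2 half-sites, beginning at positions -149 and -44, Acadvl held 1 at -87, and Cpt1a held 1 on the reverse strand at -94. Searched on both strands, the half-site occurred in 7 of 29 genes (Ucp3, Acadvl, Cpt1a, Acadm, Echs1, Cd36 and Acacb), or 24.1%, against 18.1% of all 27025 genes. The longer element TCAAGGTCA and the direct repeat AGGTCANAGGTCA, both of which contain the half-site, matched 0 of 29 genes, and 0.466% and 0.0481% of all genes. Genes with a half-site spanned the range of responses, from Ucp3 to Cd36.

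At the plasma membrane the transporters differed. Slc27a1, which encodes the fatty acid transport protein FATP1, lay at 8.70, 9.09 and 9.12 on WT Sham arrays and at 7.45, 7.60, 7.97 and 8.28 on WT AB arrays. It lay at 8.79, 9.46 and 8.88 on CXCR5-/- Sham arrays and at 7.67, 7.49, 7.88 and 7.80 on CXCR5-/- AB arrays. No AB array reached the lowest Sham array of either genotype. Slc27a1 fell by 1.15 on the log2 scale in WT (adjusted p = 0.000753, SE 0.19) and 1.33 in CXCR5-/- hearts (adjusted p = 0.000116, SE 0.19), which left 45.1% and 39.8% of the Sham signal. Averaged over genotypes, only 9 of 19937 genes had a lower log2 difference.

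Cd36, the main fatty acid translocase, differed far less, by -0.16 in WT (adjusted p = 0.279, SE 0.08) and -0.20 in CXCR5-/- hearts (adjusted p = 0.109, SE 0.08). Its Sham arrays were nevertheless tight, between 11.89 and 11.94, and all 8 AB arrays lay below them, between 11.64 and 11.84. The average over genotypes passed with a log2 difference of -0.18 (adjusted p = 0.028).

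Fabp3, the cytosolic binding protein of heart muscle, showed no difference that passed. It lay at 12.41, 12.29 and 12.33 on WT Sham and at 12.51, 12.39, 12.35 and 12.27 on WT AB arrays. On CXCR5-/- arrays it lay at 12.39, 12.28 and 12.32 after Sham and at 12.36, 12.42, 12.25 and 12.33 after AB. The groups overlapped throughout, and the 95% confidence interval of the AB difference ran from -0.14 to 0.22 in WT and from -0.17 to 0.19 in CXCR5-/- hearts. Quantile normalization, median centring and the mean of its probe sets each turned the CXCR5-/- value below 0, without passing.

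**Figure D2:**
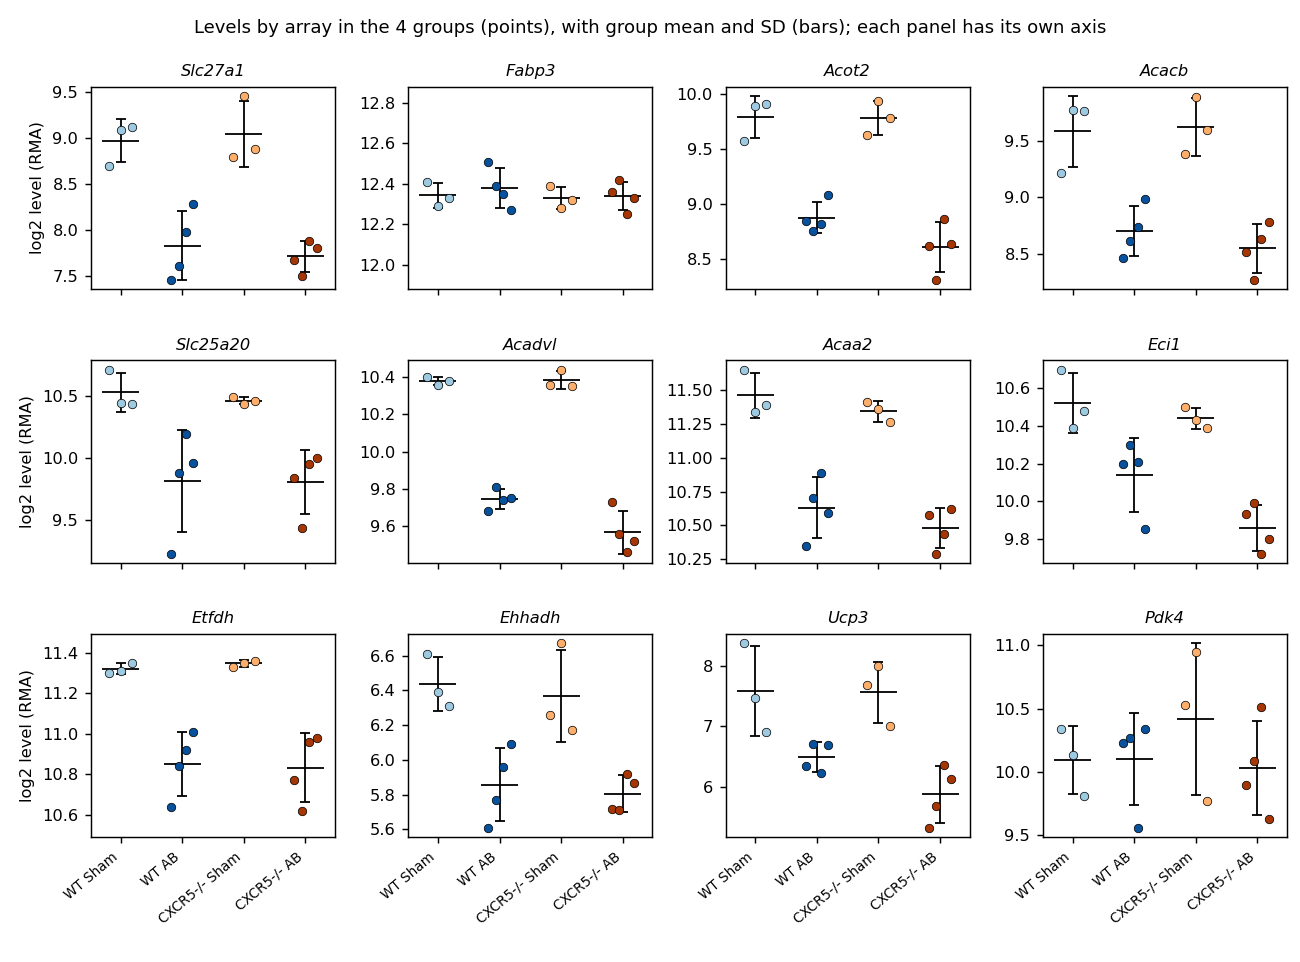
Log2 level of 12 of the genes on each array (points, 1 per mouse) in the 4 groups, with group mean and SD (bars); each panel has its own y axis spanning at least 1 log2 unit. AB arrays sit below Sham arrays in all panels but Fabp3 and Pdk4.

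Next come the enzymes that set the pools of acyl-CoA and malonyl-CoA. Acot2, a mitochondrial thioesterase that releases fatty acid from acyl-CoA, lay at 9.57, 9.89 and 9.91 on WT Sham and at 8.85, 8.76, 8.82 and 9.08 on WT AB arrays. In CXCR5-/- hearts it lay at 9.63, 9.93 and 9.78 after Sham and at 8.62, 8.31, 8.86 and 8.64 after AB. The 2 operations did not overlap, and Acot2 fell by 0.91 in WT (adjusted p = 0.000212, SE 0.13) and 1.18 in CXCR5-/- hearts (adjusted p = 9.92e-06, SE 0.13). Acot2 has a close paralog, Acot1, which was read by its own probe set and fell by 1.15 and 0.99. Probe sets of such a pair can share signal, so the split of the fall between them is uncertain.

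Acacb encodes the acetyl-CoA carboxylase that makes malonyl-CoA at the mitochondrion, and Mlycd the decarboxylase that removes it. Both fell. Acacb lay at 9.22, 9.77 and 9.76 on WT Sham and at 8.47, 8.62, 8.74 and 8.99 on WT AB arrays, and at 9.38, 9.89 and 9.60 on CXCR5-/- Sham and 8.52, 8.27, 8.63 and 8.78 on CXCR5-/- AB arrays. It fell by 0.88 log2 units (adjusted p = 0.00185, SE 0.16) in WT and fell by 1.07 (adjusted p = 0.000206, SE 0.16) in CXCR5-/- hearts, again with no overlap. Mlycd fell by 0.52 and 0.54 (SE 0.14 in each, adjusted p = 0.0205 and 0.0115). Without the 3 Sham arrays high in Myl7, Mlycd no longer passed in either genotype (adjusted p = 0.105 and 0.419), whereas Acacb did (0.00118 and 0.00975).

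Of the carnitine shuttle, 2 of 4 genes fell in WT and 3 of 4 in CXCR5-/- hearts. Slc25a20, the carnitine-acylcarnitine translocase of the inner membrane, lay at 10.71, 10.44 and 10.43 on WT Sham and at 9.23, 9.88, 10.19 and 9.96 on WT AB arrays. It lay at 10.49, 10.43 and 10.46 on CXCR5-/- Sham and at 9.84, 9.44, 9.95 and 10 on CXCR5-/- AB arrays. WT AB replicate 1 and CXCR5-/- AB replicate 2 were the lowest of their groups, and Slc25a20 fell by 0.71 (SE 0.18) and 0.65 (SE 0.18). These calls were lost (adjusted p = 0.0998 and 0.264) without the 3 Sham arrays high in Myl7, and in CXCR5-/- hearts also without any 1 of its Sham arrays or without AB replicate 2 (0.0526 to 0.0613), and with the atrial covariate (0.0622) or all probe sets tested. Crat, the carnitine acetyltransferase that buffers acetyl-CoA, fell by 0.65 (SE 0.14) and 0.72 (SE 0.14), the latter not passing without the 3 Sham arrays (adjusted p = 0.103).

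Cpt2, the inner carnitine palmitoyltransferase, was called in CXCR5-/- hearts. It lay at 9.44, 9.24 and 9.41 on WT Sham and at 9.07, 9.15, 9.11 and 8.96 on WT AB arrays, a log2 difference of -0.29 (adjusted p = 0.0678, SE 0.09). On CXCR5-/- arrays it lay at 9.42, 9.37 and 9.33 after Sham and at 8.75, 8.89, 8.83 and 9.09 after AB, and it fell by 0.48 there (adjusted p = 0.00189, SE 0.09; 0.127 without the 2 CXCR5-/- and 1 WT Sham arrays high in Myl7). AB arrays lay below Sham arrays in both genotypes, and the difference of the responses was -0.20 (SE 0.13) and did not pass. Cpt1a, the outer enzyme of liver type, differed by -0.41 in WT (adjusted p = 0.077, SE 0.14) and -0.25 in CXCR5-/- hearts (adjusted p = 0.272, SE 0.14). WT AB replicate 4 lay at 7.78, apart from the other WT AB arrays at 7.44 to 7.49, and Cpt1a passed in WT hearts without it (adjusted p = 0.0331).

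Beta-oxidation itself opens with acyl-CoA dehydrogenases of falling chain length. Acadvl, for very long chains, had the smallest adjusted p of the list. It lay at 10.40, 10.36 and 10.38 on WT Sham and at 9.68, 9.81, 9.74 and 9.75 on WT AB arrays, and at 10.36, 10.44 and 10.35 on CXCR5-/- Sham and 9.73, 9.56, 9.46 and 9.52 on CXCR5-/- AB arrays. Acadvl fell by 0.63 (adjusted p = 0.000118, SE 0.08) and 0.82 (adjusted p = 4.98e-06, SE 0.08), and both calls were kept under every alternative. Acads, for short chains, fell by 0.54 (adjusted p = 0.0374, SE 0.16) and 0.77 (adjusted p = 0.00244, SE 0.16), and Acadm, for medium chains, by 0.34 and 0.35 (SE 0.09 in each). Acadl, for long chains, differed by -0.31 (adjusted p = 0.08) and -0.25 (adjusted p = 0.149). It passed in both genotypes with array weights, with a replicate block or with a term for arrays numbered 1 and 2. That last term was added after the data were examined.

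The hydration, second dehydrogenation and thiolysis steps were all lower, with 5 of 5 genes passing in each genotype and all AB arrays below all Sham arrays. Acaa2, the thiolase that closes the matrix cycle, fell most, from 11.65, 11.34 and 11.39 on WT Sham to 10.35, 10.70, 10.89 and 10.59 on WT AB arrays. In CXCR5-/- hearts it went from 11.41, 11.36 and 11.26 to 10.58, 10.29, 10.44 and 10.62. It fell by 0.83 in WT (adjusted p = 0.000316, SE 0.12) and by 0.86 in CXCR5-/- hearts (adjusted p = 0.000124, SE 0.12), to 56.3% and 55.2% of the Sham signal. Hadha and Hadhb, the subunits of the trifunctional protein of the inner membrane, were lower by similar amounts, where Hadha fell by 0.45 and 0.51 and Hadhb fell by 0.56 and 0.59 in the same order (SE 0.09 in each). Echs1, the short-chain enoyl-CoA hydratase, fell by 0.57 and 0.46 (SE 0.12), and Hadh, the short-chain hydroxyacyl-CoA dehydrogenase, by 0.34 and 0.48 (SE 0.08). Without the 3 Sham arrays high in Myl7, Hadh lost its call in both genotypes (adjusted p = 0.075 and 0.0759) and Echs1 in CXCR5-/- hearts (0.211).

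Unsaturated chains need auxiliary enzymes that move or reduce double bonds. Of these, 3 of 4 fell in each genotype. Decr1, the dienoyl-CoA reductase, fell by 0.52 (SE 0.10) and 0.55 (SE 0.10), and Ech1, which isomerises dienoyl-CoA, by 0.45 and 0.55 (SE 0.11 in each). Eci1, an enoyl-CoA isomerase, lay at 10.70, 10.39 and 10.48 on WT Sham and at 10.20, 10.30, 10.21 and 9.85 on WT AB arrays, and at 10.50, 10.43 and 10.39 on CXCR5-/- Sham and 9.93, 9.99, 9.72 and 9.80 on CXCR5-/- AB arrays. It fell by 0.38 (adjusted p = 0.0401, SE 0.11) and 0.58 (adjusted p = 0.00181, SE 0.11), and its WT call was lost under 14 of 27 alternatives, 8 of which left out 1 array (adjusted p 0.0519 to 0.15). The isomerase Eci2 differed by -0.35 in both genotypes (SE 0.16 in each, adjusted p = 0.193 and 0.164).

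Electrons from the dehydrogenases pass through the electron transfer flavoprotein, a dimer of Etfa and Etfb, to the dehydrogenase Etfdh. Of these, Etfdh passed in both genotypes. It lay at 11.30, 11.31 and 11.35 on WT Sham and at 10.64, 10.84, 10.92 and 11.01 on WT AB arrays, and at 11.33, 11.35 and 11.36 on CXCR5-/- Sham and 10.77, 10.62, 10.96 and 10.98 on CXCR5-/- AB arrays. It fell by 0.47 (adjusted p = 0.00748, SE 0.10) and 0.51 (adjusted p = 0.00264, SE 0.10). Etfa differed by -0.29 and -0.28 (SE 0.15 in each) and Etfb by -0.33 and -0.41 (SE 0.14 in each), and neither passed. In CXCR5-/- hearts Etfb (adjusted p = 0.0646) did pass under 7 of 27 alternatives, among them significance analysis of microarrays, array weights and quantile normalization. Etfb lay between 10.93 and 11.23 on Sham arrays, at 10.94, 10.92, 10.73 and 10.30 on WT AB arrays and at 10.73, 10.68, 10.30 and 10.45 on CXCR5-/- AB arrays, so WT AB replicate 1 alone reached the lowest Sham value.

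In the peroxisome, where very long chains are shortened, Ehhadh, the bifunctional enzyme, lay at 6.61, 6.39 and 6.31 on WT Sham and at 5.61, 5.77, 5.96 and 6.09 on WT AB arrays. It lay at 6.26, 6.67 and 6.17 on CXCR5-/- Sham and at 5.72, 5.71, 5.92 and 5.87 on CXCR5-/- AB arrays, and fell by 0.58 and 0.56 (SE 0.13 in each) without overlap within a genotype. The thiolase Acaa1a lay at 7.17, 6.99 and 6.88 on WT Sham and at 6.73, 6.47, 6.98 and 6.56 on WT AB arrays, which overlapped. It lay at 7.04, 6.95 and 7.02 on CXCR5-/- Sham and at 6.63, 6.26, 6.68 and 6.61 on CXCR5-/- AB arrays, which did not. The log2 difference was -0.33 in WT (adjusted p = 0.124, SE 0.13) and -0.46 in CXCR5-/- hearts (adjusted p = 0.0203, SE 0.13). The difference between the responses was -0.13 (SE 0.18) and did not pass.

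Ucp3, an uncoupling protein of the inner membrane whose gene follows fatty acid supply in muscle, had the widest range. It lay at 8.37, 7.47 and 6.91 on WT Sham and at 6.34, 6.71, 6.24 and 6.69 on WT AB arrays. On CXCR5-/- arrays it lay at 7.68, 8 and 7.01 after Sham and at 5.33, 5.68, 6.37 and 6.14 after AB. AB arrays lay below Sham arrays in both genotypes, although WT Sham mice alone spanned more than 1 log2 unit. Ucp3 fell by 1.09 in WT (adjusted p = 0.0265, SE 0.30) and fell by 1.68 in CXCR5-/- hearts (adjusted p = 0.000808, SE 0.30). Averaged over genotypes, 2 of 19937 genes had a lower log2 difference.

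Pdk4, the kinase that holds pyruvate dehydrogenase off and so favours fatty acids over glucose, did not share this pattern. It lay at 10.34, 10.13 and 9.81 on WT Sham and at 10.23, 10.27, 9.56 and 10.34 on WT AB arrays, and at 10.53, 10.95 and 9.77 on CXCR5-/- Sham and 9.90, 10.09, 10.51 and 9.63 on CXCR5-/- AB arrays. All groups overlapped, and the log2 difference was 0.01 in WT and -0.39 in CXCR5-/- hearts (SE 0.25 in each, adjusted p = 0.992 and 0.37). Among the 6 Sham arrays, the 3 highest for Ucp3, Pdk4 and Mlycd were the same 3 that were high in Myl7, as was so for 3 of 30 members (10%) and 6.88% of all genes. Without these 3 arrays Ucp3 differed by -0.70 and -1.13 (adjusted p = 0.113 and 0.0742) and Pdk4 in CXCR5-/- hearts by 0.26. With the atrial covariate and all arrays, Ucp3 passed as lower in WT (adjusted p = 0.00738) and fell by 1.34 in CXCR5-/- hearts (0.0013), and Pdk4 differed by 0.04 and -0.25 without passing.

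**Figure D3:**
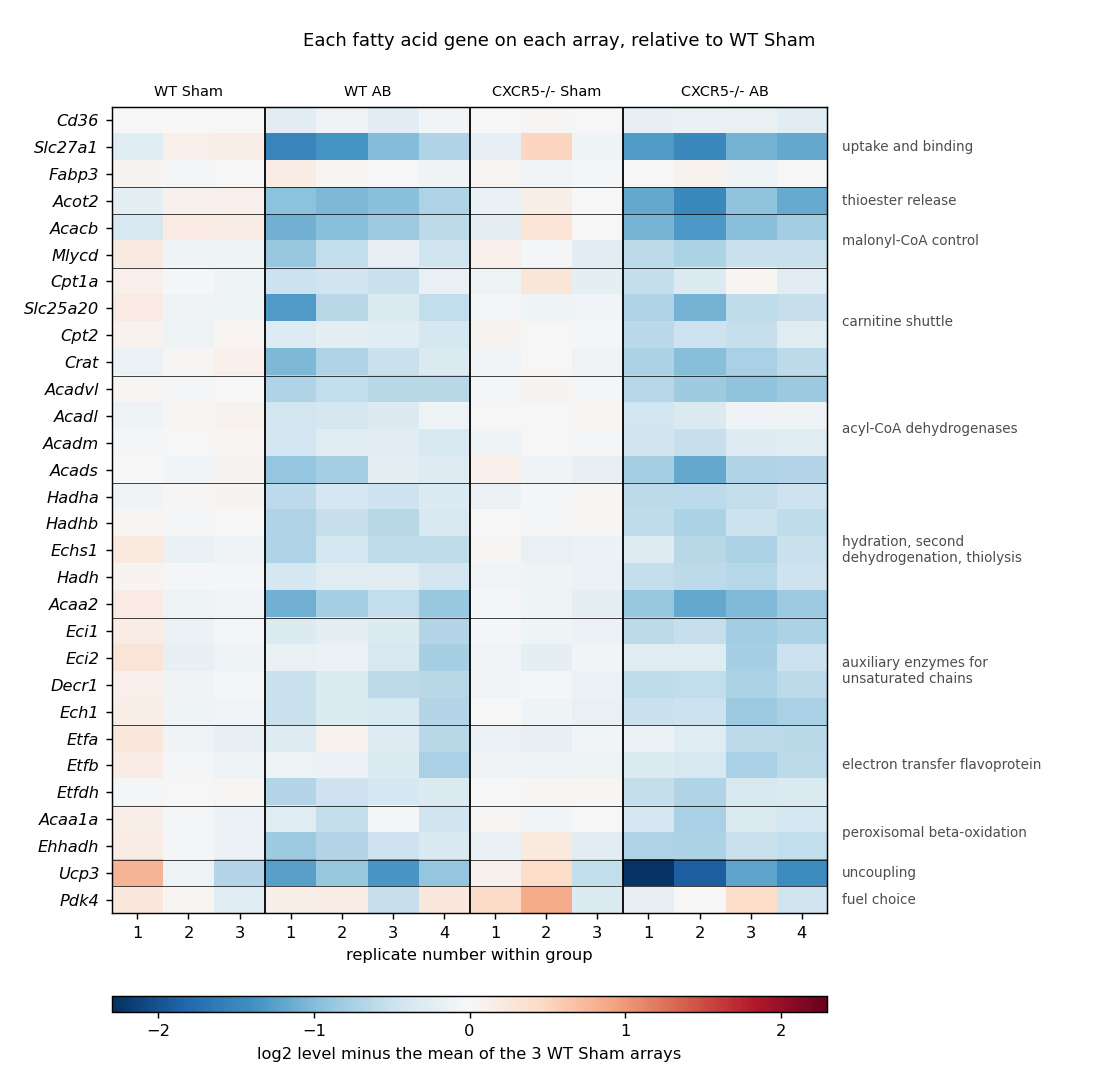
Log2 level of each of the 30 genes (rows) on each of the 14 arrays (columns) minus the mean of the 3 WT Sham arrays; blue is lower and red higher. AB columns are blue in nearly all rows, Ucp3 is the deepest, and Fabp3 and Pdk4 stay near or on both sides of 0.

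Taken array by array, the genes were lowered on each AB heart. The median deviation of the 30 genes from the WT Sham mean lay between -0.56 and -0.39 on WT AB arrays and between -0.63 and -0.55 on CXCR5-/- AB arrays, against -0.08 to 0.10 on Sham arrays. Between 27 and 30 genes lay under the WT Sham mean on each AB array, and between 10 and 24 on each Sham array. AB mice did not share 1 order of levels across genes. Of the 4 WT AB arrays, replicate 1 was lowest for 16 genes and replicate 4 for 9. Of the CXCR5-/- AB arrays, replicate 2 was lowest for 14 and replicate 3 for 9. WT replicate 1 and CXCR5-/- replicate 2 shared 12 of these genes (75% and 85.7%), among them Slc27a1, Acacb, Slc25a20, Crat, Acads, Acaa2, Etfdh and Ehhadh. WT replicate 4 and CXCR5-/- replicate 3 shared 7 (77.8% of each), which were Hadh, Eci1, Eci2, Decr1, Ech1, Etfb and Fabp3. On WT AB replicate 4, where Etfb lay at 10.30 and Eci2 at 8.03, the genes Slc27a1, Acacb and Crat were the highest of the group at 8.28, 8.99 and 10.49. These arrays were picked after their values were seen, and no test was made.

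The AB responses of the genotypes were compared next. With limma, 0 of 30 passed for the difference of the responses (0% of all genes), and 0 had an unadjusted p under 0.05 (2.88% of all genes). The difference was below 0 in 23 of 30, against 10367 of all 19937 genes, with a median of -0.06 for the 30. Ucp3 had the largest, -0.60 with a SE of 0.42. The 95% confidence intervals were wide, from -1.48 to 0.28 for Ucp3, -0.70 to 0.23 for Acads and -0.67 to 0.29 for Acacb, so like responses were not shown.

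Between the AB groups directly, 27 of 30 genes had a difference below 0 in hearts labelled CXCR5-/-, against 10107 of all 19937 genes. The median log2 difference of the 30 was -0.11. None passed (0.0451% of all genes did), 6 had an unadjusted p under 0.05 (Acot2, Cpt2, Acadvl, Hadh, Eci1 and Ucp3), as had 5.94% of all genes, and 0 passed with significance analysis of microarrays. With the replicate number as a block none passed either, Cpt2 no longer had an unadjusted p under 0.05 (0.061) and Acads did (0.0392). Hadh was lower in every CXCR5-/- AB mouse than in any WT AB mouse (11.08, 11.02, 10.97 and 11.15 against 11.22, 11.36, 11.38 and 11.21), which was so for 1 of 30 members and 1.49% of all genes. Its log2 difference was -0.24 (95% confidence interval -0.40 to -0.08, adjusted p = 0.496), and for Ucp3 it was -0.62 (-1.19 to -0.04, adjusted p = 0.791). Acadl, Cpt1a and Echs1 were the genes with a positive difference.

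After Sham, 0 of 30 passed (0.0401% of all genes), 0 had an unadjusted p under 0.05 (2.38% of all genes) and 0 passed with significance analysis of microarrays. The median log2 difference was -0.04. Hadh did not overlap here either (11.56, 11.54 and 11.49 in CXCR5-/- against 11.70, 11.58 and 11.61 in WT hearts), as for 3.57% of all genes. Its difference was -0.10 (SE 0.09, unadjusted p = 0.278 with limma). The 2 genotype comparisons share no mice, but Hadh passed in neither.

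**Figure D4:**
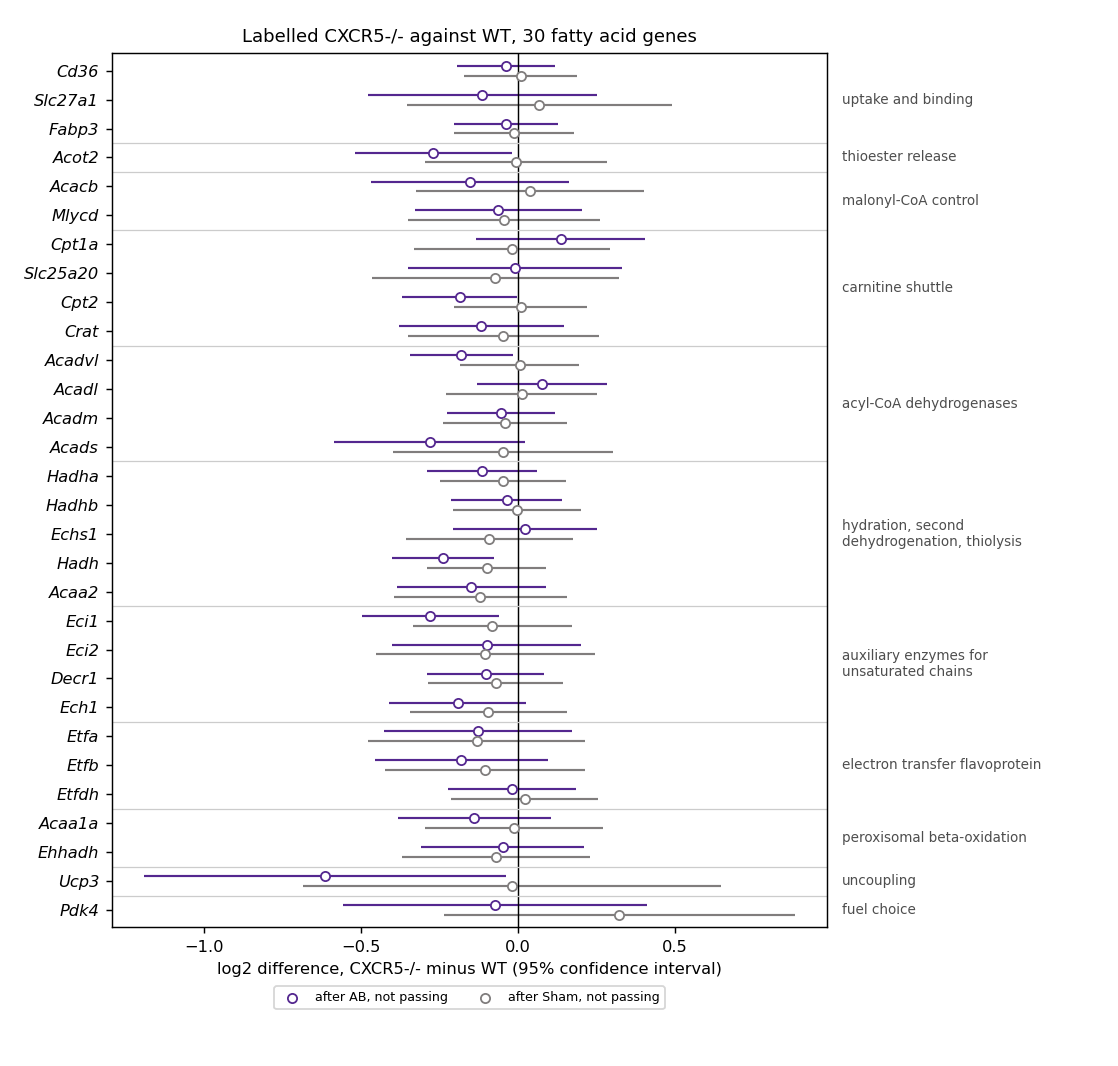
Log2 difference between hearts labelled CXCR5-/- and WT hearts (x axis) for each gene after AB (purple) and after Sham (grey), with 95% confidence intervals. No point passed an adjusted p of 0.05, and 27 of 30 AB points lie left of 0.

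Other genes of the same routes moved in part. Of 16 further genes of mitochondrial fatty acid and ketone oxidation, 9 fell in each genotype, with a median log2 difference of -0.52 in both. They included Mmut (-0.69 and -0.73) and Pccb (-0.62 and -0.65), which handle the propionyl-CoA left by odd chains, and the dehydrogenases Acad12 (-0.83 and -0.96) and Acadsb (-0.81 and -0.83). The only gene of that list that rose was Bdh1, the ketone body dehydrogenase, by 0.72 (SE 0.15) in WT and 0.52 (SE 0.15) in CXCR5-/- hearts, named after its values were seen. Of 25 further uptake and activation genes, 7 fell in WT and 8 in CXCR5-/- hearts, where 3 rose. The acyl-CoA synthetases Acsl6 (-0.57 and -0.58) and Acsm5 (-0.42 and -0.61) and the carnitine transporter Slc22a5 (-0.70 and -0.84) fell, as did Acot1, and the list median was -0.13 and -0.10. The synthetases did not all go down. Group means of Acsl5 went from 6.942 after Sham to 7.179 after AB in WT, and from 6.838 to 7.167 in CXCR5-/- hearts. Those of Acsl4 went from 6.396 to 6.578 and from 6.386 to 6.72.

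Peroxisomal, storage and fuel-choice genes were less uniform. Of 15 further peroxisomal genes 4 fell in each genotype, namely the transporter Abcd3 (-0.52 and -0.64), Pex11a (-0.65 and -0.59), Hsd17b4 (-0.43 and -0.47) and Scp2 (-0.69 and -0.62). Of 13 further uncoupling and fuel-choice genes 2 fell and 1 rose in each. Pdp2, the phosphatase that turns pyruvate dehydrogenase on, fell by 1.06 and 1.18 (SE 0.14 in each), and the kinase Pdk3 rose by 0.47 and 0.38. Pdha1 fell in WT (-0.46) and Pdk2 in CXCR5-/- hearts (-0.50), with values of -0.38 and -0.39 in the other genotype. Of 10 lipid droplet genes 4 fell in WT and 5 in CXCR5-/- hearts, with Dgat2, which makes triglyceride, at -0.77 and -0.98 and the coat genes Plin3 (-0.54 and -0.83) and Plin4 (-0.37 and -0.54) among them, and Plin5 at -0.36 (not passing) and -0.68.

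The citric acid cycle, which burns the acetyl-CoA, had 8 of 17 genes lower in WT and 10 in CXCR5-/- hearts, with medians of -0.37 and -0.39 and all 17 values below 0. Sdha (-0.58 and -0.57), Sucla2 (-0.47 and -0.50), Idh2 (-0.43 and -0.47) and Idh3a (-0.46 and -0.50) had the smallest p. Of 14 regulators of the pathway, 0 rose, while 5 fell in WT and 4 in CXCR5-/- hearts. Ppara, the nuclear receptor that senses fatty acids, fell by 0.61 (adjusted p = 0.005, SE 0.13) and 0.76 (adjusted p = 0.000573, SE 0.13). Its partner Rxrg (-0.41 and -0.53) and the coactivator Lpin1 (-0.53 and -0.73) fell in both, and Klf15 in WT hearts (-0.65, against -0.28).

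**Figure D5:**
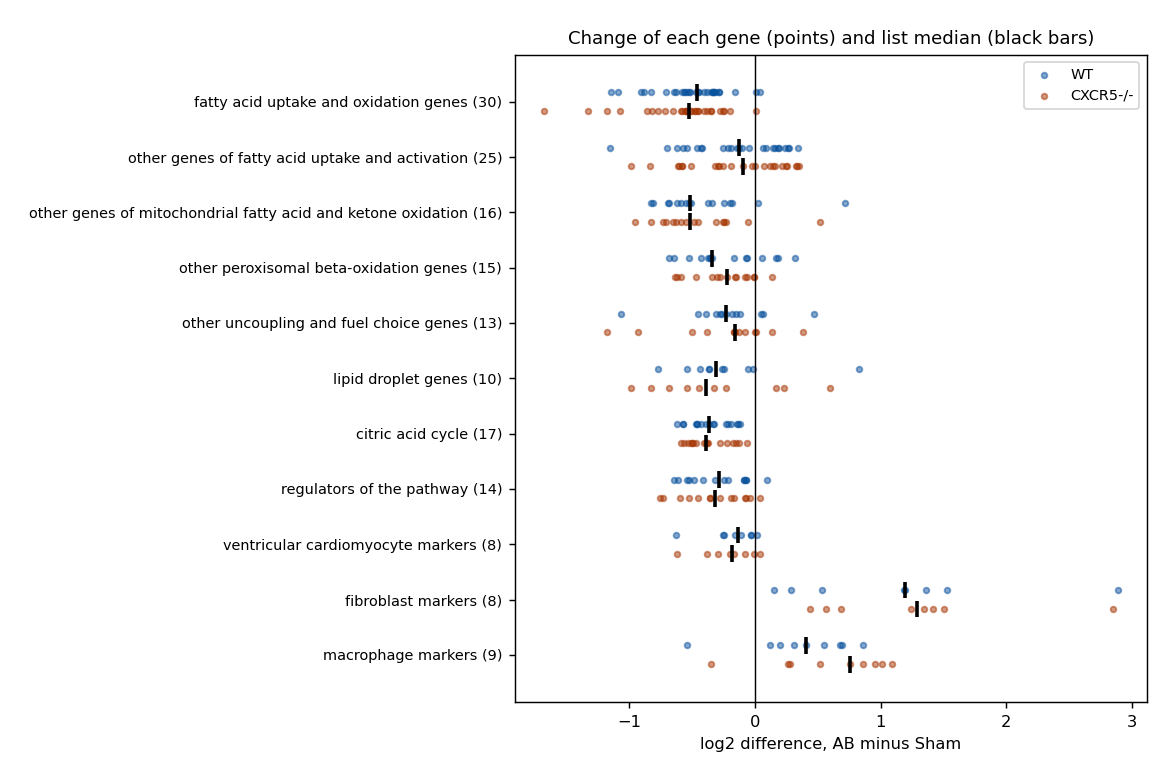
Log2 difference between AB and Sham (x axis) of every gene (points) in the fatty acid list, related lists and markers of 3 cell types, with the list median as a black bar, in WT (blue) and CXCR5-/- (brown) hearts. The fatty acid list has a median of -0.46 and -0.53, ventricular cardiomyocyte markers lie nearer 0, and fibroblast and macrophage markers lie mostly right of 0.

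In whole tissue, fewer cells of a type and less RNA per cell cannot be told apart. Of 8 ventricular cardiomyocyte markers 1 fell in WT (Ryr2) and 3 in CXCR5-/- hearts (Ryr2, Tnni3 and Myh6), with medians of -0.14 and -0.18, and their mean log2 level was 12.34 to 12.36 on Sham and 12.07 to 12.21 on AB arrays. Of 8 fibroblast markers 5 and 8 rose, with medians of 1.19 and 1.29, and their mean level went from 8.25 to 8.58 on Sham to 9.28 to 9.85 on AB arrays. Macrophage markers rose in 4 and 6 of 9, from a mean level of 7.10 to 7.41 to one of 7.62 to 8.02. Of the 9, 1 (Cd163) went the other way, by -0.54 and -0.35, and passed as lower averaged over genotypes (-0.45). No defining marker of these lists was at 0, since log2 array values have no true zero. The mean level of brown adipocyte markers was highest on CXCR5-/- Sham replicate 2, at 6.47, against 5.78 to 6.25 on the other arrays. Of these markers, Ucp1 ranged from 3.73 to 6.69 on CXCR5-/- Sham arrays, with a median of 3.92. The other markers did not follow. Cidea, Elovl3, Cox8b and Dio2 reached 8.034, 3.58, 11.61 and 5.322 in that group, and higher values on WT arrays. Zic1 reached 4.222 there, against 4.214 on WT Sham arrays. Within its group, CXCR5-/- Sham replicate 2 was highest for 12 genes of the fatty acid list, among them Slc27a1, Ucp3 and Pdk4, and lowest for 9. It is among the Sham arrays high in Myl7. The part of all these cell types in the fatty acid values was not tested.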

How the data were processed

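The deposited log2 values, made by the authors with robust multi-array average (RMA), cover 34760 probe sets on 14 arrays and were taken unchanged. Tool version and settings are not stated in the labels or methods. A single gene symbol was given for 21640 probe sets, several for 1321 and none for 11799, and 21620 matched RefSeq (GRCm38.p6). The number of arrays limits the precision. The labels name an RNeasy kit for RNA isolation, and the methods an SV total RNA kit.

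The 4 group means were fitted in R 4.3.3 with limma 3.58.1 (10 residual and 7.13 prior degrees of freedom), and p values were adjusted by Benjamini-Hochberg over 19937 genes (threshold 0.05). Significance analysis of microarrays, the test of the study, was an alternative (q of 0.05). The fit was tested on simulated data. All members are named, and up to 4 genes of each related list, those with the smallest p. The members, lists and tests were chosen with earlier results of these data known. Other alternatives were limma with trend and robust prior, array weights, a filter at the 30th percentile, quantile normalization, median centring, the mean of probe sets, all probe sets, the compared groups alone, the replicate block, an atrial covariate, 3 Sham arrays left out and each array left out. A term for arrays numbered 1 and 2 was added after the data were examined.

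Same-numbered WT AB and CXCR5-/- AB arrays deviated together from their group means in all 4 pairs (r across genes 0.125 to 0.22). Arrays with different numbers were not compared in this way, so these r values do not show that the numbers pair the mice. The number was treated as a possible pairing for that comparison, with the block as an alternative. The block was a single term over all 4 groups. The printed values come from the fit without it. Same-numbered WT Sham and CXCR5-/- Sham arrays also had r above 0, at 0.451, 0.026 and 0.169 for replicates 1, 2 and 3. With the block in limma, no member passed after Sham, and the smallest unadjusted p was 0.202 (Pdk4). The labels give the replicate number no meaning.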

Additional observations from a re-analysis of the deposited data

Results flagged for a closer look

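Of 60 sets of 4 AB arrays examined, 2 held an array far from the others, and chance alone gives about 1 in 20. Cpt1a lay at 7.78 on WT AB replicate 4, against 7.44 to 7.49 on the other WT AB arrays. Pdk4 lay at 9.56 on WT AB replicate 3, against 10.23 to 10.34 on the others.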

How the results depend on the processing

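Leaving out the 3 Sham arrays with the highest Myl7 moved the number of genes passing for AB from 20 to 12 in WT and from 22 to 7 in CXCR5-/- hearts, and the median log2 difference averaged over genotypes from -0.50 to -0.42. That setting holds fewer samples, and the cause was not tested further. With each array left out in turn, 13 to 21 genes passed in WT hearts. The other counts stayed within 1.5 times and the other medians within 0.0684, the spread of an array's median, under all alternatives run.

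Reversals touched only Fabp3 and Pdk4, neither of which passed. With single arrays left out, the difference ran from -0.0071 (without WT AB replicate 1) to 0.073 for Fabp3 in WT, from -0.016 (without AB replicate 2; also below 0 without Sham replicate 2) to 0.042 for Fabp3 in CXCR5-/- hearts, and from -0.13 to 0.19 for Pdk4 in WT, where it was below 0 without WT AB replicate 1, 2 or 4 or WT Sham replicate 3. For Fabp3 in CXCR5-/- hearts it was -0.036 with quantile normalization, -0.0063 with median centring and -0.072 with the mean of probe sets. For Pdk4 in WT it was -0.028 with array weights and -0.021 with median centring. For Pdk4 in CXCR5-/- hearts it was 0.26 without the 3 Sham arrays. Over 1620 values of single genes, 1504 kept their direction and call, 80 lost it and 23 gained it. In WT hearts 16 genes and in CXCR5-/- hearts 9 kept both in every setting.

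With the replicate block, 22 genes passed in WT and 23 in CXCR5-/- hearts for AB, and 0 between genotypes after AB. For that genotype comparison the block changed no call at the adjusted threshold. For AB against Sham the arrays share only a number (r from -0.109 to 0.264), and the block added Cpt1a and Acadl in WT and Acadl in CXCR5-/- hearts.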
